A study of Mus musculus with 10 samples.

Results

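The genes described here mark liver macrophages. They are 10 of the 54532 genes in the deposited expression table, chosen by symbol, and all 10 were found once each. Clec4f, Timd4, Vsig4 and Marco mark resident Kupffer cells, Adgre1 and Cd68 mark macrophages in general, and Trem2, Gpnmb, Spp1 and Cd9 are genes of lipid-associated macrophages. They were measured by bulk RNA sequencing in the livers of 10 mice on high-fat diet (HFD), 5 ASK1f/f mice and 5 ASK1+hep mice. All 10 mice carry a construct at the ROSA26 locus that holds murine ASK1 cDNA behind a stop cassette flanked by lox sites. In ASK1+hep mice Alb-Cre, which is active in hepatocytes, removes the stop cassette, and ASK1f/f littermates lack Cre. The transgene was thus directed to hepatocytes and not to the macrophages whose genes are described here. HFD feeding began at 6 weeks of age and lasted 7 weeks. ASK1 is a kinase of the mitogen-activated protein kinase cascade that acts upstream of JNK and p38.

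Kupffer cells are the resident macrophages of the liver. They sit in the sinusoids, take up particles, bacteria and old erythrocytes from portal blood, and are kept by signals from endothelial, stellate and hepatic parenchymal cells. When resident cells are lost in fatty liver disease, monocytes enter and can become Kupffer cells or lipid-associated macrophages, which carry Trem2 and Gpnmb and gather around fat-laden hepatocytes. Bulk RNA sequencing averages over all cells of the tissue, so that fewer macrophages and less RNA of a gene per macrophage cannot be told apart in the values below.

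Expression was given as FPKM, which correct the reads of a gene for its length and for the size of the library. Between 13367742 and 16163378 reads per liver fell on genes. The genotypes were set against each other by limma, run on log2(FPKM + 1), with p-values adjusted over 13306 genes that passed a filter on low reads (at least 10 reads in at least 5 livers), and a log2 difference below is ASK1+hep minus ASK1f/f on that scale. Of these genes, 0 passed an adjusted p of 0.05 with limma (0.0%), and 768 were at an unadjusted p under 0.05 (5.77%). The study, which used DESeq2, reported Fgf21 as highly upregulated in ASK1+hep livers. The count of 0 is that of limma on these FPKM. Map3k5, the gene of ASK1, was at 6.74, 6.88, 5.77, 4.71 and 19.8 FPKM across the livers labelled ASK1f/f replicates 1 to 5, against 16.4, 11.1, 7.68, 12.4 and 15.2 FPKM across those labelled ASK1+hep replicates 1 to 5. The liver labelled ASK1f/f replicate 5 was therefore the highest of the 10, against its label. These values hold transgene and endogenous reads together, and group names follow the labels throughout. The library of ASK1+hep replicate 3 had the fewest genes with reads (18391, against 19263 to 20315 in the others), and its long genes were low relative to its short genes. The median deviation of the longest 25% of genes minus that of the shortest 25% was -0.36 log2 units in that liver. It was between -0.17 and 0.23 in the other ASK1+hep livers, and between 0.035 and 0.11 in the 5 ASK1f/f livers. The hepatocyte markers listed summed to between 31880 and 47380 FPKM per liver.

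All 10 genes lie at the same position in the table and in GENCODE M21 (GRCm38). Clec4f (ENSMUSG00000014542), a lectin restricted to Kupffer cells, lies on the minus strand at chr6:83644542-83656187 and has 7 exons in its longest coding transcript. Timd4 (ENSMUSG00000055546), a receptor for phosphatidylserine on dying cells, lies on the plus strand at chr11:46810800-46844332 with 9 exons. Vsig4 (ENSMUSG00000044206), a complement receptor, lies on the minus strand at chrX:96247203-96293438 with 7 exons. Marco (ENSMUSG00000026390), a scavenger receptor, lies on the minus strand at chr1:120474538-120505024 with 17 exons. Adgre1 (ENSMUSG00000004730), which encodes F4/80, lies on the plus strand at chr17:57358691-57483527 with 22 exons. Cd68 (ENSMUSG00000018774), which encodes a lysosomal glycoprotein, lies on the minus strand at chr11:69664213-69666153 with 6 exons. Trem2 (ENSMUSG00000023992), a lipid-sensing receptor, lies on the plus strand at chr17:48346401-48354147 with 5 exons. Gpnmb (ENSMUSG00000029816), a transmembrane glycoprotein of lipid-laden phagocytes, lies on the plus strand at chr6:49036546-49070929 with 11 exons. Spp1 (ENSMUSG00000029304), which encodes osteopontin, lies on the plus strand at chr5:104435118-104441050 with 6 exons. Cd9 (ENSMUSG00000030342), a tetraspanin, lies on the minus strand at chr6:125460266-125494791 with 8 exons. Exons of Gm42793 overlap Spp1 on the same strand and exons of Gm26728 overlap Cd9 on the other strand, and these genes had at most 1 and 0 reads per liver.

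Windows from 250 bases before to 50 bases after the annotated start were available from RefSeq (GRCm38.p6) for 9 of the 10 genes, with 2 windows for Spp1 and none used for Adgre1. They are shown for 3 genes that varied together between livers (Clec4f, Vsig4 and Cd68) and for Spp1, whose correlations with them were low. Each is given on its gene's strand, with capitals marking a match to one of 4 motifs searched on both strands: GAGGAAGT, bound by PU.1, the factor that all macrophages need, TGANTCA, bound by AP-1, TCACGTG or TCATGTG, bound by MITF and TFE factors, and TGCTGAC, part of the site of MAF factors. The windows are chr6:83656067-83656366 for Clec4f, chrX:96293389-96293688 for Vsig4, chr11:69666121-69666420 for Cd68 (all minus strand) and chr5:104434861-104435160 for Spp1 (plus strand).
Clec4f: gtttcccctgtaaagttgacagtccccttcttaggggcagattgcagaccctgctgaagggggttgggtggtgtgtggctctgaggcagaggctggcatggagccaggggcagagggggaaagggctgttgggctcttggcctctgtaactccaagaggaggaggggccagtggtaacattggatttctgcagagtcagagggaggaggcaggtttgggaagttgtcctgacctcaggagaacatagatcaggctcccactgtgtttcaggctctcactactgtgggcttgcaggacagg
Vsig4: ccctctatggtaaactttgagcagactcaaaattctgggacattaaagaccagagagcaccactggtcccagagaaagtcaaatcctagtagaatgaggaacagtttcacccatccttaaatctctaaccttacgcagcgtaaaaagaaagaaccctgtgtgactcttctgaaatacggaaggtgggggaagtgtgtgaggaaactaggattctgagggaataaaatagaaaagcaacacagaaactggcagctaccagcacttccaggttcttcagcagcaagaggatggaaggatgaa
Cd68: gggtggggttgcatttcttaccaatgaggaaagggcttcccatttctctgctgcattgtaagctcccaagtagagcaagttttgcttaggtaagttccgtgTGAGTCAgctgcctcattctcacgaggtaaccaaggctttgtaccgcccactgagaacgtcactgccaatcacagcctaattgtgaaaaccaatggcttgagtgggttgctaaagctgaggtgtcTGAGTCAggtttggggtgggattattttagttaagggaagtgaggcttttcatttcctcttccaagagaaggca
Spp1: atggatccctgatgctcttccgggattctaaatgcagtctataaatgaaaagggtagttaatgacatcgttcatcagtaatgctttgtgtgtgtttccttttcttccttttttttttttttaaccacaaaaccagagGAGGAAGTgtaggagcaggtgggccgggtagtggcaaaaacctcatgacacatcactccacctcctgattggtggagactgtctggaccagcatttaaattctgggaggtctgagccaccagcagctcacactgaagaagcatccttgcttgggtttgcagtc
The windows of Clec4f and Vsig4 held no match to these letters. The Cd68 window held TGANTCA at 149 and at 24 bases before the start, and the Spp1 window held GAGGAAGT at 113 bases before the start. Among the windows not printed, TGANTCA began 9 bases before the start of Trem2 and 8 bases after that of Gpnmb, TGCTGAC began 45 bases before the start of Timd4, and Marco, Cd9 and the other Spp1 window had none. Of all 32851 windows, 3.2% held GAGGAAGT, 7.81% TGANTCA, 7.4% TCACGTG or TCATGTG, and 4.67% TGCTGAC. A match is a string of letters in this window and was not tested as a site.

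Resident Kupffer cell genes were expressed in every liver, and none differed between genotypes beyond the spread between livers. Clec4f was at 32.6, 41.8, 42.1, 32.4 and 52.6 FPKM across ASK1f/f replicates 1 to 5, against 47.3, 27.1, 33.7, 36.4 and 39.5 FPKM across ASK1+hep replicates 1 to 5, from 865 to 2000 reads per liver. The groups overlapped, with ASK1f/f replicate 5 highest and ASK1+hep replicate 2 lowest. Mean Clec4f was 36.8 ± 7.46 FPKM (SD, n = 5) in ASK1+hep mice, against 40.3 ± 8.36 FPKM (SD, n = 5) in controls, a log2 difference of -0.13 (95% interval -0.50 to 0.24, adjusted p = 0.870 from limma). The log2 difference of Clec4f was -0.22 without ASK1+hep replicate 1 and -0.025 without ASK1+hep replicate 2. The exact two-sided permutation test over every division of the 10 livers into groups of 5 gave p = 0.492 (n = 5 per group).

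Timd4 was at 2.78, 2.48, 2.06, 2.06 and 3.47 FPKM across ASK1f/f replicates 1 to 5, against 3.43, 0.890, 2.04, 1.75 and 2.57 FPKM across ASK1+hep replicates 1 to 5. The same livers stood at the ends as for Clec4f, and the range of ASK1f/f values lay within that of ASK1+hep values apart from its top. The log2 difference was -0.23 (95% interval -0.67 to 0.22, adjusted p = 0.821 from limma), and the exact permutation test gave p = 0.373 (n = 5 per group). It was -0.37 without ASK1+hep replicate 1 and -0.060 without ASK1+hep replicate 2. Vsig4 was at 10.5, 13.3, 11.9, 11.1 and 15.8 FPKM in ASK1f/f livers, against 16.9, 6.72, 8.85, 12.7 and 12.7 FPKM across ASK1+hep replicates 1 to 5. Here ASK1+hep replicate 1 was the highest and ASK1+hep replicate 2 the lowest of all 10 livers. The log2 difference of Vsig4 was -0.15 (95% interval -0.60 to 0.30, adjusted p = 0.871 from limma), and its sign turned without ASK1+hep replicate 2 (0.011). Marco was at 5.01, 1.95, 2.74, 2.94 and 5.43 FPKM in ASK1f/f livers, against 6.46, 2.17, 1.58, 4.33 and 3.88 FPKM across ASK1+hep replicates 1 to 5. Marco spread widely within both genotypes, and the means of 3.61 ± 1.52 and 3.68 ± 1.93 FPKM (SD, n = 5 each) were nearly equal. Its log2 difference of -0.016 (95% interval -0.67 to 0.63, adjusted p = 0.992 from limma) had no stable sign, and lay between -0.21 and 0.17 when single livers were left out.

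**Figure D1:**
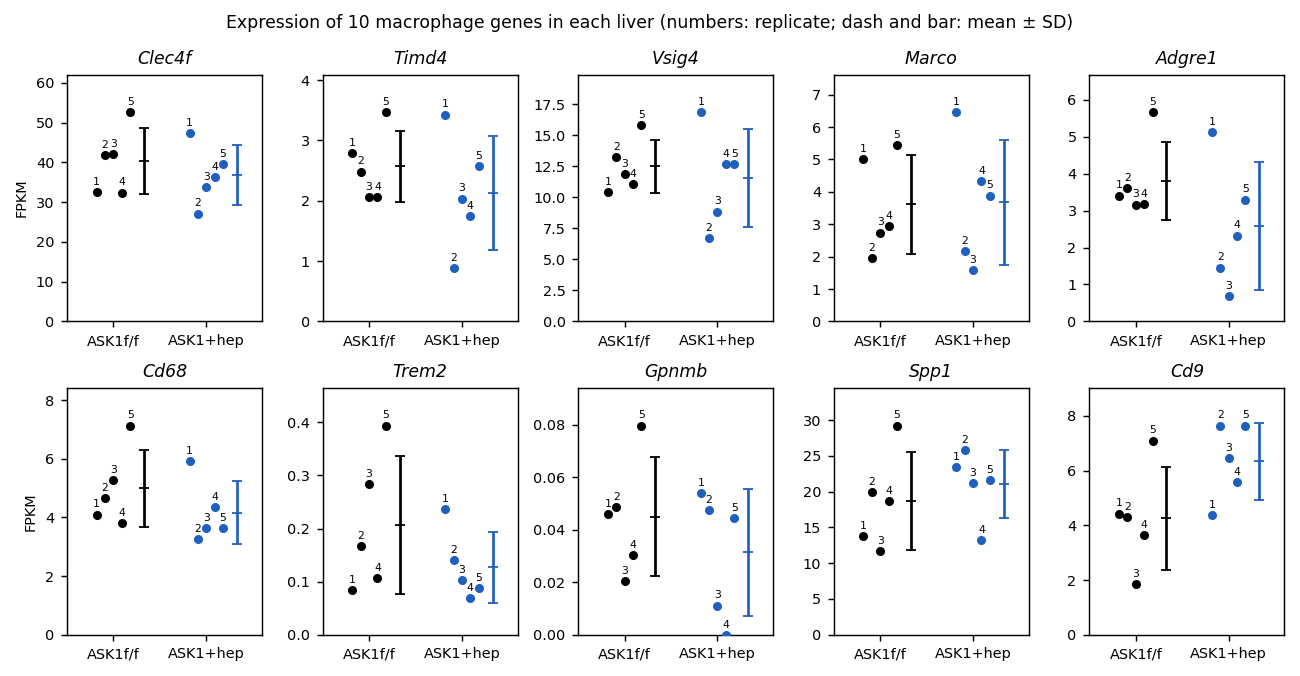
FPKM (vertical axes, linear from 0) of the 10 genes in livers of ASK1f/f (black) and ASK1+hep mice (blue), with replicate numbers beside the points and mean ± SD of 5 livers as dash and bar. The groups overlap in every panel, and ASK1f/f replicate 5 and ASK1+hep replicate 1 are the 2 highest livers for 7 genes.

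The general macrophage genes were lower on average in ASK1+hep livers, within the spread between livers. Adgre1 was at 3.40, 3.61, 3.16, 3.17 and 5.66 FPKM in ASK1f/f livers, against 5.13, 1.46, 0.695, 2.32 and 3.30 FPKM across ASK1+hep replicates 1 to 5, from 31 to 283 reads per liver. Of the ASK1+hep livers, 3 lay below every ASK1f/f liver, while ASK1+hep replicate 1 lay above 4 of them. ASK1+hep mice had a mean of 2.58 ± 1.72 FPKM (SD, n = 5) and controls one of 3.80 ± 1.06 FPKM (SD, n = 5). The log2 difference of Adgre1 was -0.54 (standard error 0.29, 95% interval -1.18 to 0.11, p = 0.0941 and adjusted p = 0.812 from limma), and the exact permutation test gave p = 0.183 (n = 5 per group). Without ASK1+hep replicate 3, the liver with the lowest value, the log2 difference was -0.30. Without that liver and ASK1f/f replicate 5 it was -0.18, and with the trend with gene length removed it was -0.54.

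Cd68 was at 4.10, 4.65, 5.27, 3.82 and 7.13 FPKM in ASK1f/f livers, against 5.92, 3.26, 3.64, 4.36 and 3.64 FPKM across ASK1+hep replicates 1 to 5. Here too 3 ASK1+hep livers lay below every ASK1f/f liver, and the ranges overlapped. Mean Cd68 was 4.99 ± 1.32 and 4.17 ± 1.06 FPKM (SD, n = 5 each), with a log2 difference of -0.21 (95% interval -0.58 to 0.16, adjusted p = 0.817 from limma, exact permutation p = 0.294). It was -0.32 without ASK1+hep replicate 1 and -0.094 without ASK1f/f replicate 5. Replicate 1 of each genotype carries tag letters that differ from those of the other 8. Within those 8 livers the log2 difference was -0.79 for Adgre1 (unadjusted p = 0.0176, adjusted p = 0.685 from limma), -0.37 for Cd68 (adjusted p = 0.698) and -0.29 for Clec4f (adjusted p = 0.698), and for Cd9 it was 0.67 (unadjusted p = 0.0339, adjusted p = 0.688), so that none passed the adjusted threshold. The other 2 livers are 1 of each genotype and give no test.

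Of the genes named for lipid-associated macrophages, Trem2 and Gpnmb were close to the limit of detection. Trem2 was at 0.0848, 0.167, 0.284, 0.106 and 0.394 FPKM in ASK1f/f livers, against 0.237, 0.141, 0.103, 0.0685 and 0.0881 FPKM across ASK1+hep replicates 1 to 5, from 5 to 30 reads per liver. ASK1f/f replicates 5 and 3 were highest, and all ASK1+hep livers lay below them. Means were 0.207 ± 0.130 and 0.127 ± 0.0668 FPKM (SD, n = 5 each), and the exact permutation test gave p = 0.246 (n = 5 per group). The log2 difference of Trem2 was -0.094 (95% interval -0.25 to 0.064, adjusted p = 0.815 from limma) after adding 1 FPKM, which understates differences at this level, and -0.54 (standard error 0.48, adjusted p = 0.817) with limma-voom on the reads. Gpnmb had 0 to 8 reads per liver and 38 in all, and did not pass the filter. Gpnmb was at 0.0460, 0.0487, 0.0205, 0.0303 and 0.0798 FPKM in ASK1f/f livers, against 0.0540, 0.0475, 0.0111, 0 and 0.0446 FPKM across ASK1+hep replicates 1 to 5. Its 0 in ASK1+hep replicate 4 allows up to 3 reads, or 0.0312 FPKM. At this depth a small difference between genotypes could not be resolved, and none was detected (exact permutation p = 0.381, n = 5 per group). Counting alone would give a coefficient of variation of 51.3% for Gpnmb and 28.2% for Trem2 at their mean reads, where 60.7% and 63.4% were observed over the 10 livers. The limit of 3 reads and these counting values cover counting error only.

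Spp1 and Cd9 were well expressed and were the members whose log2 difference was above 0. Spp1 was at 13.7, 19.96, 11.7, 18.7 and 29.3 FPKM in ASK1f/f livers, against 23.4, 25.8, 21.2, 13.3 and 21.6 FPKM across ASK1+hep replicates 1 to 5. The highest and the lowest liver were both ASK1f/f, and the ASK1+hep values lay between them. Mean Spp1 was 18.7 ± 6.83 and 21.1 ± 4.72 FPKM (SD, n = 5 each), with a log2 difference of 0.20 (95% interval -0.31 to 0.72, adjusted p = 0.855 from limma, exact permutation p = 0.468). It was 0.061 without ASK1f/f replicate 3 and 0.37 without ASK1f/f replicate 5. Cd9 was at 4.42, 4.29, 1.86, 3.63 and 7.09 FPKM in ASK1f/f livers, against 4.36, 7.64, 6.46, 5.57 and 7.64 FPKM across ASK1+hep replicates 1 to 5. All 5 ASK1+hep livers lay above the ASK1f/f median and 2 above the ASK1f/f maximum. Mean Cd9 was 6.33 ± 1.41 FPKM (SD, n = 5) in ASK1+hep mice, against 4.26 ± 1.88 FPKM (SD, n = 5) in controls, a log2 difference of 0.53 (standard error 0.24, 95% interval 0.011 to 1.06). Its unadjusted p of 0.0461 became 0.812 after adjustment over all genes with limma, and the exact permutation test gave p = 0.0794 (n = 5 per group). Leaving out any single liver other than ASK1f/f replicate 5 or ASK1+hep replicate 1 took its unadjusted p above 0.05. With the trend with gene length removed, the log2 difference was 0.48 for Cd9 (unadjusted p = 0.0702 from limma) and 0.13 for Spp1. With replicate number as a block in that fit, the unadjusted p of Cd9 from limma was 0.0245.

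Of the 9 members that passed the filter, 0 passed the adjusted threshold with limma, beside 0.0% of all genes, and 1, Cd9, was at an unadjusted p under 0.05, beside 5.77% of all genes. With limma-voom these counts were also 0 and 1. Log2 differences were above 0 for 2 of the 9 and below 0 for 7, beside 48.0% above and 52.0% below over all genes. The values of the genotypes did not overlap for 0 of the 10 members, beside 0.864% of all genes. The median log2 difference was -0.14 for the 4 resident members, and 0.20 for the 3 lipid-associated members that passed the filter, beside -0.0065 for all genes. The lipid-associated median is the value of Spp1 alone, with Cd9 above it and Trem2 (-0.094) below 0. Gpnmb, which did not pass the filter, had means of 0.0451 FPKM in controls and 0.0315 FPKM in ASK1+hep mice. The resident median was -0.26 without ASK1+hep replicate 1 and -0.0070 without ASK1+hep replicate 2, the ends of its range when single livers were left out. The lipid-associated median ran from 0.061 without ASK1f/f replicate 3 to 0.37 without ASK1f/f replicate 5.

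**Figure D2:**
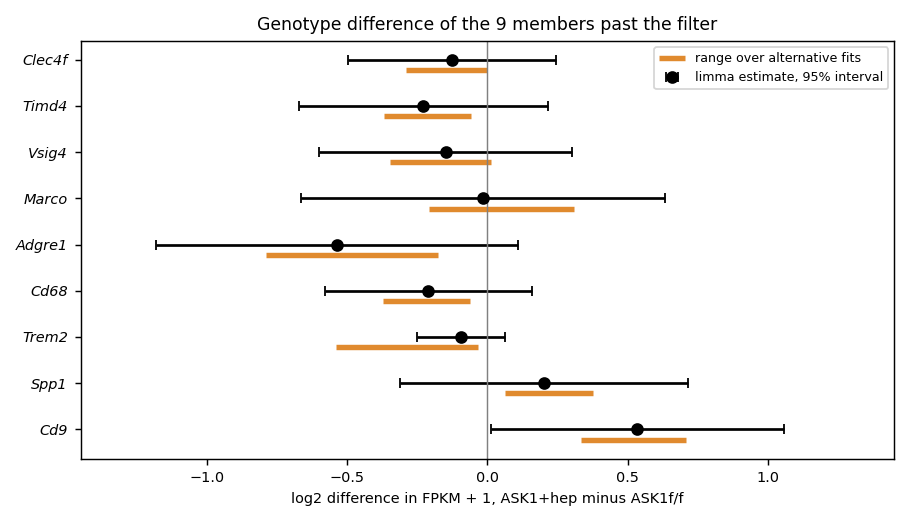
Log2 difference in FPKM + 1, ASK1+hep minus ASK1f/f (horizontal axis), for the 9 genes past the filter, with limma's 95% interval (black) and the range of the estimate over the alternative fits (orange), some of which use a smaller pseudocount or reads and so have a wider scale for the low Trem2. The interval of Cd9, from 0.011 to 1.06, is the only one of the 9 without 0, at an adjusted p of 0.812.

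In order of mean FPKM over the 10 livers, Clec4f (38.6) stood first, followed by Spp1 (19.9), Vsig4 (12.0), Cd9 (5.30), Cd68 (4.58), Marco (3.65), Adgre1 (3.19), Timd4 (2.35), Trem2 (0.167) and Gpnmb (0.0383). Neighbours were compared with an exact sign-flip permutation test over livers, adjusted over 9 pairs. Clec4f exceeded Spp1 in 10 of 10 livers (adjusted p = 0.00586, exact permutation test), and Timd4 exceeded Trem2 in 10 of 10 at the same p. The levels of Cd9, Cd68, Marco, Adgre1 and Timd4 formed a stretch in which no neighbours were separated, with adjusted p of 0.541, 0.0703, 0.255 and 0.0879 in that order (exact permutation test). These levels depend on the gene length used. The table's length for Trem2 is 4946 bases, where its longest coding transcript has 1088. With all reads of a gene divided by the length of that transcript, Trem2 was at 0.761 and Cd9 at 8.82. This assumes that every read fell on that transcript, since reads were not counted again. Cd9 was then separated from Cd68 (adjusted p = 0.0211, exact permutation test), Cd68 was separated from Marco (adjusted p = 0.0469), and Cd9 was not separated from Vsig4 (adjusted p = 0.0703), while the order of the 10 genes stayed as given.

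Kupffer cell and general macrophage genes varied together between livers. ASK1f/f replicate 5 and ASK1+hep replicate 1 were the 2 highest livers for Clec4f, Timd4, Vsig4, Marco, Adgre1, Cd68 and Gpnmb, that is, for 7 of 10 members. ASK1+hep replicate 2 was lowest for Clec4f, Timd4, Vsig4 and Cd68, and ASK1+hep replicate 3 was lowest for Marco and Adgre1. The spread was unequal: the highest liver exceeded the lowest 1.94-fold for Clec4f and 8.14-fold for Adgre1, with coefficients of variation of 19.95% and 46.8%, where counting alone gives 2.63% and 7.93%. The summed FPKM of the 4 resident members ran from 48.5 to 77.3 in ASK1f/f and from 36.9 to 74.1 in ASK1+hep livers.

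**Figure D3:**
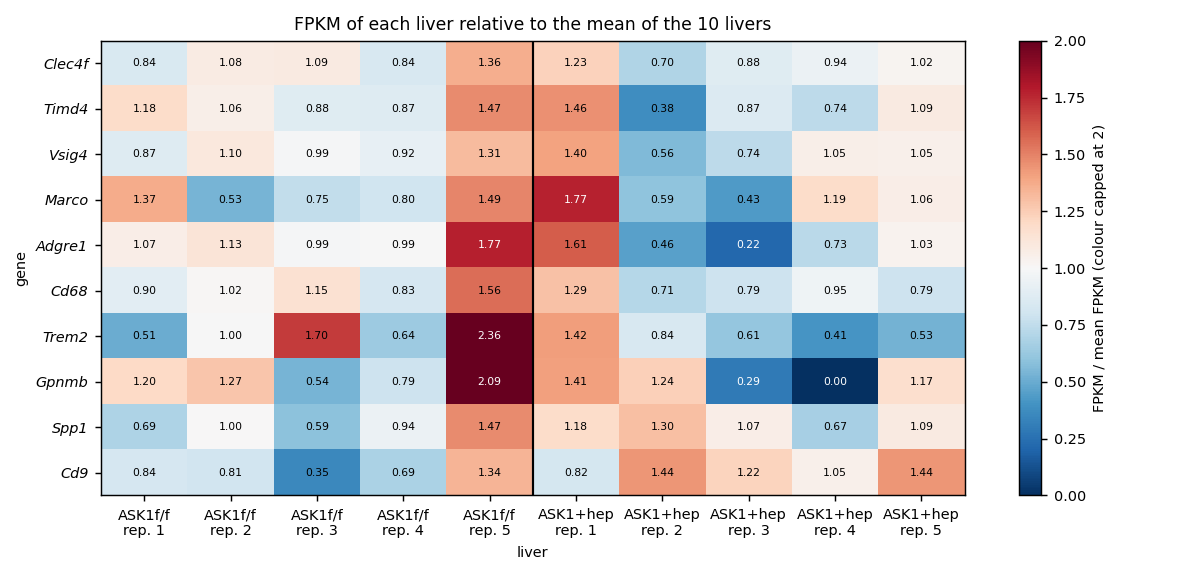
FPKM of each gene (rows) in each liver (columns), divided by the gene's mean over the 10 livers, with red above and blue below 1 and a black line between the genotypes. ASK1f/f replicate 5 is above 1 for all 10 genes, and ASK1+hep replicate 2 is low for the Kupffer cell and general macrophage genes and high for Spp1 and Cd9.

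Correlations over the 10 livers were computed on deviations from the genotype means of log2(FPKM + 1) for all 45 pairs, with permutation p-values adjusted over the pairs. Of the 45 pairs, 9 passed by Pearson's r, 5 by Spearman's rho and 5 by both. Clec4f varied with Vsig4 (r = 0.906, adjusted p = 0.00653, and rho = 0.855, adjusted p = 0.0341, permutation test, n = 10) and with Cd68 (r = 0.905, adjusted p = 0.00653, and rho = 0.903, adjusted p = 0.0131, permutation test, n = 10). Without the 2 livers farthest from the Clec4f median these r were 0.830 and 0.841, and in the 8 livers with the same tag letters they were 0.862 and 0.848. Vsig4 varied with Adgre1 (r = 0.845, adjusted p = 0.0224, and rho = 0.927, adjusted p = 0.0131, permutation test, n = 10) and with Cd68 (r = 0.804, adjusted p = 0.0224, and rho = 0.818, adjusted p = 0.0474, permutation test, n = 10). The remaining pair that passed by both measures, Gpnmb with Spp1 (r = 0.816, rho = 0.903), rested on the 0 to 8 reads of Gpnmb. Clec4f with Timd4 (r = 0.790), Timd4 with Vsig4 (r = 0.840) and Marco with Adgre1 (r = 0.836) passed by r alone. The pair Cd68 with Trem2 also passed by r alone (r = 0.838, rho = 0.685), and r fell to 0.480 without the 2 livers farthest from the Cd68 median. Raw log2 values with genotype means kept gave 7 pairs by r, the 8 livers with the same tag letters gave 3, and values with the trend with gene length removed gave 14.

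Spp1 and Cd9 showed low correlations with the 6 Kupffer cell and general macrophage genes, a split chosen after the values were seen. Among the 6 Kupffer cell and general macrophage genes, r of the 15 pairs ran from 0.517 to 0.906 with a median of 0.727, and 7 passed. In the 8 livers with the same tag letters 0 of these 15 pairs passed, at a median r of 0.661. Between Spp1 or Cd9 and those 6 genes, r of the 12 pairs ran from -0.11 to 0.26 with a median of 0.0693, and 0 passed. Without the 2 livers farthest from the median of the gene named first, r of these pairs ran from -0.73 for Cd68 with Spp1 to 0.822 for Adgre1 with Spp1, and 1 passed. Between Spp1 and Cd9 r was 0.682 (adjusted p = 0.0885, permutation test, n = 10), 0.528 without the 2 livers farthest from the Spp1 median and 0.922, where the pair passed, in the 8 livers with the same tag letters. Gpnmb had r of 0.816 with Spp1 and 0.576 with Cd9. A low r over 10 livers does not show that 2 genes vary independently.

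**Figure D4:**
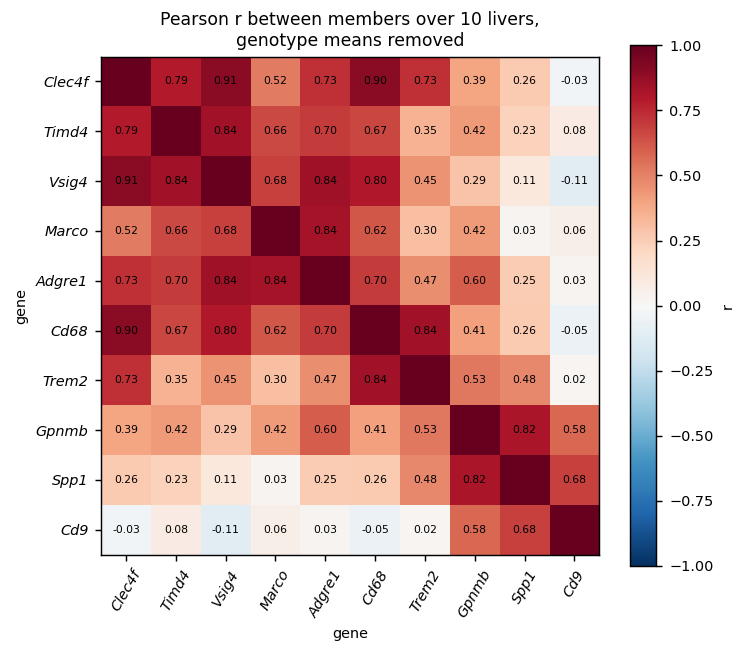
Pearson r between the 10 genes (rows and columns) over 10 livers, on deviations from the genotype means of log2(FPKM + 1). The 6 genes from Clec4f to Cd68 form a block with r from 0.52 to 0.91, and Spp1 and Cd9 have r from -0.11 to 0.26 with them.

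The balance between lipid-associated and resident genes was described per liver, without a test, as the mean log2(FPKM + 1) of the 4 lipid-associated members minus that of the 4 resident members. It was -1.65, -1.38, -1.77, -1.39 and -1.53 in ASK1f/f and -1.85, -0.56, -0.97, -1.56 and -1.36 in ASK1+hep replicates 1 to 5. The mean of the resident genes was higher in all 10 livers, the genotypes overlapped, and ASK1+hep replicates 2 and 3 were nearest to 0. Single genes did not all follow, since Spp1 exceeded Vsig4 in 9 of 10 livers. Trem2 and Gpnmb, under 1 FPKM in all livers, add little to the lipid-associated mean, which moves mainly with Spp1 and Cd9. The ratio of Cd9 to Cd68 in FPKM ran from 0.354 to 1.08 in ASK1f/f and from 0.736 to 2.34 in ASK1+hep livers, of which 4 of 5 lay above the ASK1f/f maximum. The ratio of Spp1 to Clec4f ran from 0.277 to 0.576 and from 0.365 to 0.953, with 2 of 5 above the ASK1f/f maximum. That of Trem2 to Cd68 ran from 0.0207 to 0.0553 in ASK1f/f and from 0.0157 to 0.0432 in ASK1+hep livers. Of the latter 0 of 5 lay above the ASK1f/f maximum, at 5 to 30 Trem2 reads per liver. The ratio of Clec4f to Cd68 was the steadiest of those computed with these genes, from 7.37 to 8.99 in ASK1f/f and from 7.99 to 10.9 in ASK1+hep livers. The ratio of Clec4f to Adgre1 ran from 9.29 to 13.3 and from 9.24 to 48.6, the last in ASK1+hep replicate 3.

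Genes with the most similar pattern to a member were sought among 10043 genes with a mean of at least 1 FPKM, by r of the deviations over the 10 livers, as a description. For Clec4f these were Laptm5 (r = 0.961), a lysosomal protein of leukocytes, then Themis2 (0.936), Crybg1 (0.933), Msn (0.931), which encodes the cytoskeletal linker moesin, and Abcg1 (0.928), a cholesterol exporter. For Trem2, from few reads, they were Ackr2 (0.921), Ablim3 (0.889), Fyn (0.876), Gm12663 (0.842) and S100a9 (0.834), a neutrophil gene. For Spp1 they were Asxl1 (0.877), Abhd17c (0.866), Ctcflos (0.860), Tmem185a (0.859) and Plekha1 (0.848).

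Other Kupffer cell and macrophage genes lay mostly below 0, without passing the adjusted threshold. Of 12 other Kupffer cell genes, all past the filter, log2 differences were above 0 for 3 and below 0 for 9, with a median of -0.22 (-0.27 to -0.080 when single livers were left out). Il18bp, which encodes a secreted inhibitor of interleukin 18, was the gene of this list with the lowest p by limma, at 3.85 ± 0.909 FPKM in controls, against 2.67 ± 0.457 FPKM in ASK1+hep mice (SD, n = 5 each, log2 difference -0.39, unadjusted p = 0.0187 and adjusted p = 0.812 from limma). The scavenger receptor gene Cd163 had the next p, at -0.34 (exact p = 0.27 from the two-sided permutation test, as for the genes named after it). Of 16 other macrophage genes, all past the filter, log2 differences were above 0 for 2 and below 0 for 14, with a median of -0.15 (-0.29 to -0.055 when single livers were left out) and 0 genes at an unadjusted p under 0.05. Mpeg1, which encodes perforin-2, was at 15.2 ± 4.42 and 11.1 ± 4.51 FPKM (SD, n = 5 each), a log2 difference of -0.46 (exact p = 0.159), and Cd14, the lipopolysaccharide co-receptor, was at -0.43 (exact p = 0.206). Summed over each of these lists, ASK1f/f replicate 5 was the highest and ASK1+hep replicate 2 the lowest liver, as for Clec4f. The median sum of the other Kupffer cell genes was higher in ASK1+hep livers (178.2 FPKM) than in controls (157.5 FPKM). The sums overlapped, from 112.2 to 179.6 FPKM in ASK1+hep livers and from 147.9 to 204.2 FPKM in controls. Nr1h3, 1 of the 3 genes above 0, had the highest mean of this list, at 52.5 FPKM in controls and 59.5 FPKM in ASK1+hep mice. The median sum of the other macrophage genes was lower in ASK1+hep livers (249.2 FPKM) than in controls (283.6 FPKM). Genes are named by the lowest p of limma, whose adjusted p was 0.812 or higher for each of them. Over all genes 52.0% had a log2 difference below 0, 2.72% were at an unadjusted p under 0.05 and lower, and 3.05% were so and higher.

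Other genes of lipid-associated macrophages were split evenly. Of 20, 19 passed the filter, with 9 above and 10 below 0 and a median of -0.014. Atp6v0d2, a subunit of the lysosomal proton pump, had the lowest p, at 0.312 ± 0.0808 and 0.186 ± 0.105 FPKM (SD, n = 5 each, log2 difference -0.15, exact p = 0.0794), and Cd63, a tetraspanin like Cd9, had a log2 difference of 0.21 (exact p = 0.214). The filter removed Mmp12. Many of these genes, such as Apoe and Plin2, are also expressed by hepatocytes, so that their bulk values do not belong to macrophages alone. Of 13 genes of the TREM2 pathway, which hands the receptor's signal on through Tyrobp and Syk, 12 passed the filter, which Hcst did not, with 5 above and 7 below 0 and a median of -0.040. Ctnnb1, which encodes beta-catenin, was at 28.3 to 31.0 FPKM in controls, against 7.55 to 31.9 FPKM in ASK1+hep livers, a log2 difference of -0.54 (exact p = 0.119), and Plcg2, a phospholipase, was at -0.13 (exact p = 0.175). Hcst, an adaptor like Tyrobp, had 3 to 16 reads per liver, with 0.338 ± 0.0789 FPKM in controls, against 0.862 ± 0.490 FPKM in ASK1+hep mice (SD, n = 5 each). Of the ASK1+hep livers, 4 of 5 lay above the ASK1f/f maximum. Hcst was named after its values were seen, so that no p is given for it and its difference is a description only. Tyrobp and Apoe stand in a list above as well. Of the 7 receptors of osteopontin, 1 was above and 6 below 0, with a median of -0.059, led by Itga9 (-0.24, exact p = 0.191) and Itga4 (0.047, exact p = 0.222). Of these lists, 0 genes were at an unadjusted p under 0.05.

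Genes of monocytes, which replace lost Kupffer cells, were scarce. Of 12, 10 were under 1 FPKM in all livers, S100a4 was listed at 0 in all, and 5 passed the filter, with 1 above and 4 below 0 and a median of -0.041. Fn1, which hepatocytes also express as plasma fibronectin, had the lowest p (log2 difference -0.31, exact p = 0.143), then Plac8 (-0.10, exact p = 0.579). The 15 signals and factors of the Kupffer cell niche all passed the filter, with 4 above and 11 below 0 and a median of -0.067. Irf8, a transcription factor of macrophages and dendritic cells, had the lowest p (-0.17, exact p = 0.119), followed by Gdf2, which encodes the stellate cell signal BMP9 (-0.20, exact p = 0.302). In both lists 0 genes were at an unadjusted p under 0.05.

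**Figure D5:**
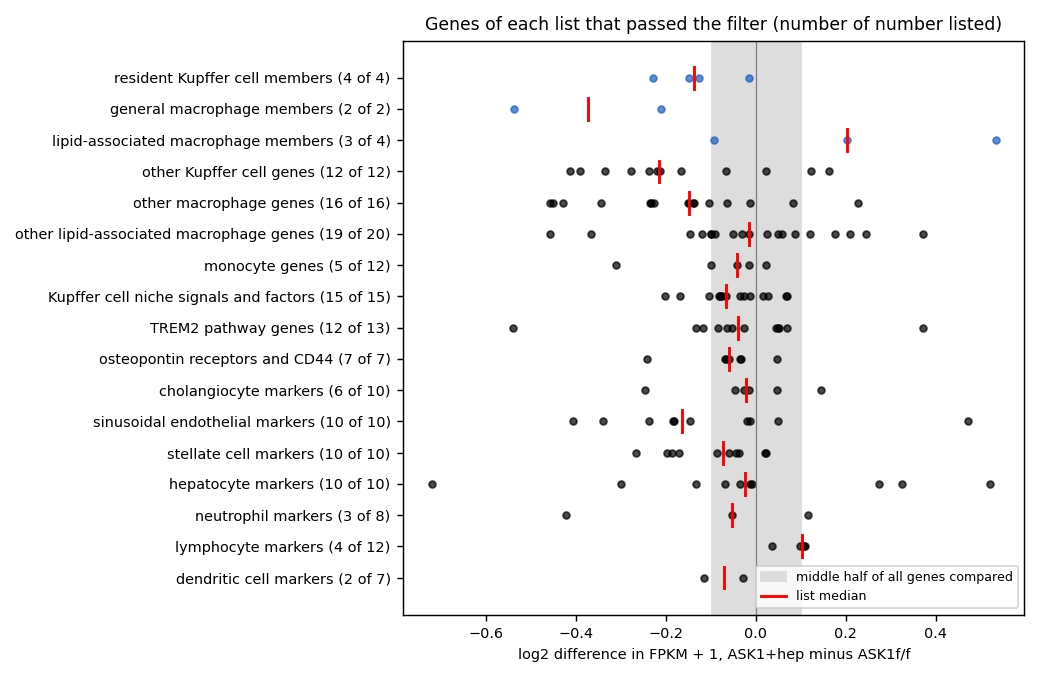
Log2 difference in FPKM + 1, ASK1+hep minus ASK1f/f (horizontal axis), of the genes of each list that passed the filter (points, members in blue), with the list's median (red) and the middle 50% of all genes compared (grey). The medians of the other Kupffer cell genes (-0.22), the sinusoidal endothelial markers (-0.16) and the other macrophage genes (-0.15) lie below the grey band. So do those of the resident (-0.14) and the general macrophage members (-0.37). Those of the lymphocyte markers (0.10) and of the lipid-associated members (0.20, the value of Spp1 alone) lie above the band.

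Spp1 and Cd9 are also made outside macrophages, and osteopontin is made by bile duct cells. The cholangiocyte markers Krt7, Krt19, Epcam and Sox9 had means of 0.131, 0.583, 0.599 and 1.03 FPKM in controls, against 0.0964, 0.543, 0.626 and 0.952 FPKM in ASK1+hep mice, with adjusted p from 0.827 to 0.983 (limma). None was at 0 in any liver. The 10 cholangiocyte markers summed to 10.8 to 12.3 FPKM in controls, against 9.92 to 12.7 FPKM in ASK1+hep livers. Of these, 6 passed the filter, with 2 above and 4 below 0 and a median of -0.021. Slc4a2, the anion exchanger AE2, was at 3.49 to 4.21 FPKM in controls, against 2.15 to 3.37 FPKM in ASK1+hep livers without overlap (log2 difference -0.25, unadjusted p = 0.0447, adjusted p = 0.812 from limma). Its exact permutation p of 0.00794 is the smallest that 5 livers against 5 allow. Over all genes past the filter, 0.864% had genotypes without overlap, so that 1 such gene among the lists is not unusual. The part of bile duct cells in the Spp1 and Cd9 values was not tested.

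Markers of other cell types gave 2 more genes of the lists at an unadjusted p under 0.05 and 1 list whose median lay between those of the other Kupffer cell and the other macrophage genes. The 10 sinusoidal endothelial markers were above 0 for 2 and below 0 for 8, with a median of -0.16 (-0.23 to -0.041 when single livers were left out), led by Fcgr2b (0.47, exact p = 0.182) and Oit3 (-0.34, exact p = 0.214). They summed to 43.3 to 63.6 FPKM in controls, against 35.7 to 63.7 FPKM in ASK1+hep livers, the lowest again in ASK1+hep replicate 2. The 10 stellate cell markers were above 0 for 2 and below 0 for 8, with a median of -0.073, led by Dcn (-0.27, exact p = 0.246) and Reln (-0.17, exact p = 0.262). The 10 hepatocyte markers were above 0 for 3 and below 0 for 7, with a median of -0.024. By limma, Ttr (0.52, exact p = 0.0318) and F2 (-0.30, exact p = 0.0238) were at an unadjusted p under 0.05 and an adjusted p of 0.812. Of 8 neutrophil markers 3 passed the filter (median -0.052), led by S100a8 (-0.42, exact p = 0.357) and Csf3r (-0.052, exact p = 0.746), and the summed level was highest in ASK1f/f replicate 5. Of 12 lymphocyte markers 4 passed, all above 0 (median 0.10), with Cd4 (0.097, exact p = 0.151) and Cd79b (0.11, exact p = 0.635) first by p. Of 7 dendritic cell markers 2 passed, Clec9a (-0.11, exact p = 0.476) and Zbtb46 (-0.029, exact p = 0.579), both below 0. The part of any of these cells in the values of the members was not tested.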

How the data were processed

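Liver RNA of 10 mice was sequenced from poly-A libraries. The authors cleaned the reads, mapped them with Hisat2, counted them per gene with FeatureCounts and deposited FPKM values, the unit used here. The genome build is not given in the sources used here, and neither is it clear whether the libraries kept strand. GENCODE M21 held 54495 of the 54532 genes, 98.3% of them at the same position. FPKM times gene length gave whole reads for 100% of values (tolerance 0.01), used for depth, for the filter (10 reads or more in 5 livers or more after scaling to the median depth, and 15 or more in total) and for limma-voom. A count test as in the study, which used DESeq2, was not run on these FPKM.

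Genotypes and replicate numbers came from the labels, each liver being labelled as a separate sample. limma 3.58.1 (R 4.3.3) was fitted to log2(FPKM + 1) without covariates, using a trended prior variance, adjusted by Benjamini-Hochberg over 13306 genes. Exact permutation tests covered all splits into 5 and 5, and correlations used permutations (scipy 1.17.1). Scripts were tested on simulated data. Libraries differed from each other by more than sampling noise (lowest chi-square per degree of freedom 17.3). The members and lists were chosen with earlier results of these data known. Named were the members, Map3k5, up to 2 genes of lowest p per list, defining cholangiocyte markers, and 5 genes most like Clec4f, Trem2 and Spp1. Hcst was named outside this rule, after its values were seen. Lists covered Kupffer cell, macrophage, lipid-associated macrophage, monocyte, niche, TREM2 pathway, osteopontin receptor, cholangiocyte, endothelial, stellate, hepatocyte, neutrophil, lymphocyte and dendritic cell genes. Alternatives were other filters, a pseudocount of 0.1, limma-voom with and without quality weights, scaling by all reads, the replicate block, the tag letters of the animals, and leaving out each liver. Leaving out 2 livers together, transcript length, and removal of the trend with gene length were chosen after seeing the data.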

Additional observations from a re-analysis of the deposited data

Results flagged for a closer look

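In each group of 5 livers, the distance of the highest or the lowest liver to the nearest other was divided by the whole range of the group, with a limit of 0.71. Of 78 groups examined (the members, Map3k5 and the genes named from the lists), 7 passed the limit, and chance passes about 1 in 20. Among the members this was Adgre1 alone, in ASK1f/f replicate 5 with 5.66 FPKM, where the other 4 ASK1f/f livers were at 3.16 to 3.61 FPKM. Map3k5 was at 19.8 FPKM in the same liver, where the others were at 4.71 to 6.88 FPKM. The stellate cell markers Dcn (9.86 FPKM, others 16.2 to 17.5) and Reln (0.753 FPKM, others 1.59 to 1.69) were lowest in that liver as well. Gdf2 was at 6.50 FPKM in ASK1f/f replicate 2 (others 4.97 to 5.41), Slc4a2 at 4.21 FPKM in ASK1f/f replicate 1 (others 3.49 to 3.69), and Csf3r at 0.413 FPKM in ASK1+hep replicate 4 (others 0.825 to 0.894).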

How the results depend on the processing

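No member passed the adjusted threshold under any alternative run, and the lowest adjusted p was 0.398 for Adgre1 and 0.424 for Cd9. Directions of Clec4f, Timd4, Adgre1, Cd68, Trem2, Spp1 and Cd9 were kept under all alternatives run. Vsig4 turned above 0 without both ASK1f/f replicate 5 and ASK1+hep replicate 3 (0.0057) and ran from -0.29 to 0.011 when single livers were left out. Marco turned with limma-voom with quality weights (0.23), without both livers (0.31), and when single livers were left out (-0.21 to 0.17). Members above 0 numbered 2, 4 without both livers, and 2 to 4 when single livers were left out. Members at an unadjusted p under 0.05 numbered 1, 0 with no filter, with scaling by all reads, with the tag letters as a covariate and with the length trend removed, 3 within the 8 livers with the same tag letters (Adgre1, Trem2 and Cd9), and 0 to 2 when single livers were left out, with Adgre1 and Cd9 without ASK1+hep replicate 1. Genes past the adjusted threshold numbered 0, 1 with limma-voom with quality weights, 3 without both livers, and 0 to 1 when single livers were left out (1 without ASK1+hep replicate 5). Genes at an unadjusted p under 0.05 numbered 768, 1222 with no filter, and 557 to 1724 when single livers were left out, with 1178 without ASK1+hep replicate 1 and 1724 without ASK1+hep replicate 5. Of these genes 52.9% were higher in ASK1+hep livers, and 31.4% with scaling by all reads, which moved the median of all genes to -0.052. Pairs of members that passed by r numbered 9, 3 within the 8 livers and 14 with the length trend removed. The causes of these changes were not tested.

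Same-numbered livers are different animals. Their tags in the labels are consecutive in 4 of 5 pairs, and the controls are littermates, but no label says that a number marks a litter, batch or day, and the correlation of their deviations was over 0.1 in 2 of 5 pairs (0.0738, 0.174, 0.0212, 0.171 and 0.0932), while 6 of 10 livers correlated best with their own number. The mean correlation was 0.107 for livers of the same number and -0.027 for livers of different numbers. The labels do not settle whether the numbers mark a pairing, and the main fit and the exact permutation tests are unpaired. With the replicate block 880 genes were at an unadjusted p under 0.05, 0 passed the adjusted threshold and Cd9 was the only member at an unadjusted p under 0.05. In that fit the unadjusted p from limma was 0.0299 for Cd9 and 0.0509 for Adgre1, against 0.0461 and 0.0941 without the block. Depth limited Trem2 (5 to 30 reads per liver) and Gpnmb (0 to 8).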
